A study of Homo sapiens with 19 samples.

Results

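Untreated (UT) macrophages were compared between 24 h and 8 h of culture. The 5 arrays were those labelled UT at these time points, 3 at 24 h and 2 at 8 h, of 19 arrays in all. The paper prepared 3 samples per condition and arrayed only those that met its threshold of RNA integrity. The study asked how vitamin C (vit C) alters gene expression of macrophages over time, and the UT cells were its time-matched controls, whose own change with time is described here. All cells were THP-1, a human line derived from an acute monocytic leukemia, grown in serum-containing medium. They had been exposed to 30 nM PMA, a phorbol ester that activates protein kinase C, overnight and then rested briefly without it, and both time points were counted from the moment when vit C was added to the parallel flasks. The UT flasks received no vit C. The parallel flasks received 0.1 mM vit C and were measured on 3 arrays at 8 h and 2 at 24 h. THP-1 is 1 line of leukemic origin, so the arrays carry no variation between donors, and the methods describe them as biological replicates. The p-values below measure the spread between such arrays.

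PMA makes THP-1 monocytes stop dividing, attach to plastic and take on macrophage traits such as phagocytosis, receptors for complement and antibodies, and the release of cytokines and proteases. Immature monocytes carry azurophil granule proteases such as cathepsin G, neutrophil elastase and proteinase 3, whose genes are active in promonocytes and are silenced as the cells mature. Macrophages in turn secrete chemokines that call in neutrophils and monocytes, and matrix metalloproteinases that cut collagen and proteoglycans, with the tissue inhibitors (TIMPs) that hold these enzymes in check.

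Levels are given throughout as log2 of the array's processed signal minus the 75th percentile of that array, so 0 is a signal equal to that percentile and negative values are dimmer. The 75th percentile signal was 585 and 432 on the UT 8 h arrays and 290, 457 and 318 on the UT 24 h arrays, and 57.5% to 68.7% of the 50238 probes were well above background. All 5 arrays were on 1 slide. Pearson's r over the probes was 0.984 to 0.987 between arrays of the same time point and 0.978 to 0.982 between arrays of different time points. Of 20 macrophage identity markers on the array, 19 were well above background on all 5 arrays, among them CSF1R, CD68, TYROBP and SPI1, and MRC1, the mannose receptor, was on none. Of 41 markers of other lineages (T and NK cells, B cells, erythroid cells, fibroblasts, epithelium and endothelium), 20 could be tested. The 2 that passed (beside 3.03% of all genes), NKG7 and VWF, were both lower at 24 h, and both calls were lost with normexp background correction. The defining T cell marker CD3D, the endothelial CDH5 and the fibroblast COL1A1 were not well above background on any of the 5 arrays. The summed signal of the 8 fibroblast markers, in multiples of the 75th percentile, was 2.31 and 3.30 at 8 h and 4.38, 4.43 and 3.86 at 24 h, with 3 of them testable and 0 past the test, and the part of this shift in the results was not tested.

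Of 20924 genes tested, 634 (3.03%) differed at least 2-fold (an absolute log2 difference of 1 or more) with a Benjamini-Hochberg q of at most 0.05 in limma. At 24 h 298 were higher (1.42%) and 336 were lower (1.61%). A gene was represented by its brightest probe and entered the test if all arrays of either time point had that probe well above background. A gene dim at one time point could enter only through the other, which fixed its direction. For several lists, counts are therefore also given over the 18517 genes well above background on all 5 arrays. Of the 634, 510 were among these (2.75%), 10 were not on any array at 8 h and 42 were not on any at 24 h. Most changes were moderate. In 537 genes the difference was 4-fold or less, and in the other 97 it was larger, with 61 higher and 36 lower. The median log2 difference over all genes tested was -0.03. For 8777 genes (41.9% of those tested) the arrays of the time points did not overlap, and this held for all 634. As this is bulk RNA, fewer cells of a kind and less RNA per cell cannot be told apart. Normexp background correction with an offset of 50 gave 313, with smaller differences for many dim genes, and its values are given below beside several of them. Without UT 8 h replicate 1 the count was 372, without UT 8 h replicate 2 it was 274, and in a fit on the 5 arrays alone it was 108. Higher genes made up 47.0% of the calls, against 55.6% with normexp, 67.6% in the fit on the 5 arrays alone and 41.6% without UT 24 h replicate 1.

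**Figure D1:**
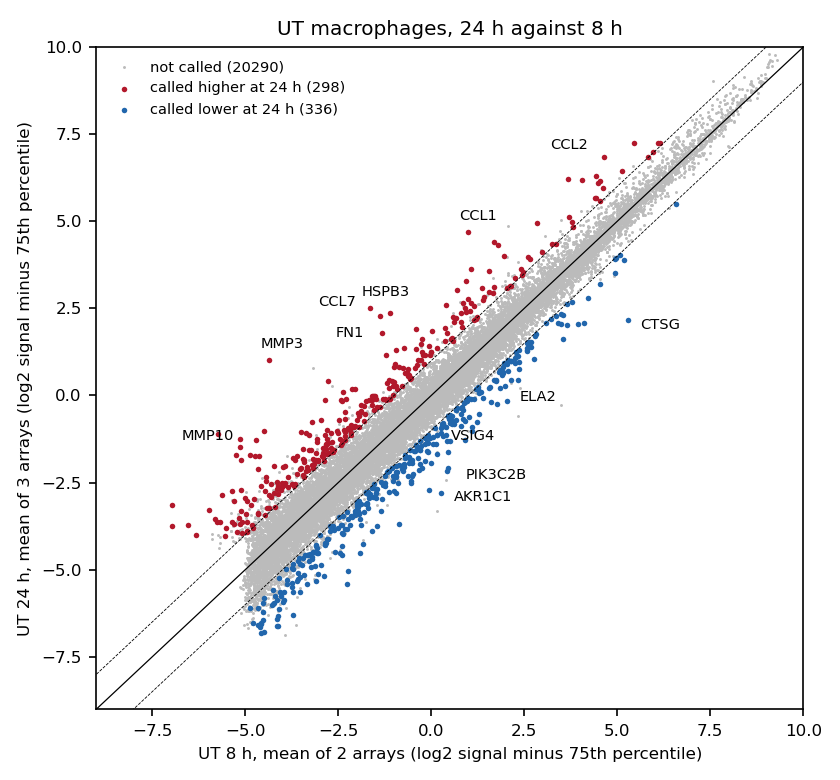
Mean level of each tested gene in UT cells at 8 h (x axis, 2 arrays) and 24 h (y axis, 3 arrays), both as log2 signal minus the 75th percentile of the array. Red points are the 298 genes called higher and blue points the 336 called lower, the solid line is equality and the dashed lines are a log2 difference of 1. MMP3 lies farthest above the line, and CTSG and AKR1C1 far below it.

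The largest rise belonged to the matrix proteases. Of 26 genes tested in the list of matrix proteases and plasminogen activation, 10 rose and 0 fell (38.5%, beside 3.03% of all genes), and the median log2 difference of the list was 0.74. Of the 25 well above background on all 5 arrays 9 rose. MMP3, stromelysin-1, which cuts proteoglycans and activates other metalloproteinases, had levels of -4.48 and -4.25 at 8 h and of 1.1, 1.14 and 0.78 at 24 h. It rose 41.4-fold (log2 5.37 ± 0.35 SE, q = 1.64e-06), from near the dim end of the array to above its 75th percentile, and with normexp the log2 difference was 3.69. MMP8, a collagenase, stood at -5.40 and -6.05 at 8 h, where 1 of 2 arrays was well above background, and at -1.15, -0.69 and -1.5 at 24 h (log2 4.62 ± 0.46, q = 7.72e-05). MMP10, stromelysin-2, stood at -4.77 and -4.63 and then at -1.58, -1.78 and -0.49, and rose as well (log2 3.42 ± 0.45, q = 0.000605). The arrays of the time points lay far apart in each of these 3 genes, although MMP10 varied by over 1 log2 unit within the 24 h arrays. With normexp MMP8 rose by 2.13 and MMP10 by 1.83 on the log2 scale.

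Other proteases rose by less. MMP7, matrilysin, was at 1.19 and 0.95 at 8 h and at 3.73, 3.70 and 3.46 at 24 h (5.91-fold). MMP12, macrophage elastase, rose 5.0-fold, and MMP1, interstitial collagenase, rose 4.37-fold, from 3.92 and 4.20 to 6.45, 5.98 and 6.13. Some of the inhibitors rose as well. TIMP1 rose 3.68-fold, TIMP3 rose 2.20-fold, and SERPINB2, which inhibits plasminogen activators, rose 4.74-fold. F3, tissue factor, the trigger of coagulation, rose 2.18-fold. MMP9, gelatinase B, had levels of 8.96 and 9.18 at 8 h and 10.08, 9.50 and 9.85 at 24 h, and its log2 difference of 0.74 did not pass (q = 0.0954). MMP14, the membrane-bound member, did not pass either (-0.63, q = 0.796). Leaving out any 1 of the 5 arrays left 9 or 10 of the list past the test.

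The promoters of the largest risers are shown to let the windows before the start site be compared. MMP3 has no entry in the promoter table used, so MMP8 and MMP10 stand for the list. The windows are the 250 bases before the annotated start (RefSeq, GRCh38.p14), 5′ to 3′ on the strand of the gene, both from the minus strand, at chr11:102724955-102725204 for MMP8 and chr11:102780629-102780878 for MMP10. Capitals mark the AP-1 motif TGANTCA.
MMP8: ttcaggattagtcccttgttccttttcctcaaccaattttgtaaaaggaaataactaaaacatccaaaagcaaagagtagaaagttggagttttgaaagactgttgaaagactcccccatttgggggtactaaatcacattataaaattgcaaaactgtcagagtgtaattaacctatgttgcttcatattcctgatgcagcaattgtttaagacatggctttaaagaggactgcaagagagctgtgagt
MMP10: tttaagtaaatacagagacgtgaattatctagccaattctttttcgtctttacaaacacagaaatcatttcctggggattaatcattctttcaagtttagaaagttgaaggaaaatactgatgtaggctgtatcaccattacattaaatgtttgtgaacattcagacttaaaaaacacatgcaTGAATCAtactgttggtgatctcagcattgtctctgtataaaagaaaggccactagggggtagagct
The MMP10 window held 1 AP-1 match, whose first base lies at -67 from the start, and the MMP8 window held 0. Of the 15 list genes with a promoter entry, 6 held the motif on either strand, namely F3, MMP10, MMP7, PLAUR, SERPINB2 and TFPI2, of which PLAUR and TFPI2 did not pass the test. Of all 27305 promoters 6.74% held it, of the genes tested 4.50%, of genes called higher 10.8% (18 of 167) and of genes called lower 3.72% (7 of 188). CCAAT, another motif searched, stood in 9 of the same 15 list genes (60%), beside 35% of the genes tested. TTTGAA (CHR) stood in 18% of genes called higher (30 of 167), beside 9.46% of the genes tested. These shares describe letters in a window and were not tested.

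Neutrophil-attracting chemokines were higher at 24 h throughout. Of the 6 neutrophil-attracting CXC chemokines well above background on all 5 arrays, all were higher at 24 h and 5 rose (83.3% called, beside 2.75% of all such genes), with a median log2 difference of 1.63. The seventh tested, PPBP, was dim at 8 h. CXCL3, a ligand of CXCR2, was at 1.88 and 1.71 at 8 h and at 4.40, 4.53 and 4.01 at 24 h, and rose 5.72-fold (log2 2.52 ± 0.34, q = 0.000697). CXCL1 was at 4.40 and 4.55 and then at 6.51, 5.94 and 5.86 (3.09-fold). CXCL2 rose 3.08-fold, CXCL5 3.00-fold and CXCL6 5.40-fold, of which the CXCL6 call (q = 0.0169) was lost when any 1 array other than UT 24 h replicate 3 was left out. PPBP, the precursor of CXCL7, was not well above background on any 8 h array and rose, at least 3.81-fold on this scale. That call was lost with normexp (log2 0.92) and with signals floored at 20 (log2 1.15). The exception was IL8 (CXCL8), whose arrays read 2.91 and 2.97 at 8 h and 4.17, 4.09 and 4.30 at 24 h. Its log2 difference of 1.25 ± 0.74 did not pass (q = 0.451) with the spread estimated over the arrays of all 8 groups, while its SD within the UT groups was 0.04 and 0.11. In a fit on the 8 h and 24 h arrays alone 7 of 7 passed, and in a fit on the 5 arrays alone 3 did. Leaving out either 8 h array left 4. Probes of CXCL1, CXCL2 and CXCL3, which are close paralogs, may share signal, which was not tested.

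The 250 bases before the start (RefSeq, GRCh38.p14) are printed for the CXC chemokines with the largest measured rises. These were CXCL3 (chr4:74038690-74038939, minus strand) and CXCL6 (chr4:73836428-73836677, plus strand). Capitals mark the NF-kappa-B motif searched (GGGA, any 4 letters, CC).
CXCL3: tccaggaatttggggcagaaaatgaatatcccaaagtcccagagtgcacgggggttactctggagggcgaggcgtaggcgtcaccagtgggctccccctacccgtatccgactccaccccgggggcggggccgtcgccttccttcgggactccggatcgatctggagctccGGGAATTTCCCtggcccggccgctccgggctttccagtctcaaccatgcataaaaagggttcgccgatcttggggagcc
CXCL6: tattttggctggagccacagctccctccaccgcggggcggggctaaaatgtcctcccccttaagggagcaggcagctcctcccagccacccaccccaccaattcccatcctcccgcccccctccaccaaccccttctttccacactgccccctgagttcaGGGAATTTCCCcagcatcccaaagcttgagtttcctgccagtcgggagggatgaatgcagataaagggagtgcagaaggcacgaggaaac
The same run of letters stands in both windows, near the start in each, and reads as overlapping matches on the plus and minus strands. Its first base lies at -79 in CXCL3 and at -90 in CXCL6. Of the 7 genes 6 held the motif (85.7%) and PPBP did not, beside 22.1% of all promoters, 27.0% of those of the genes tested and 29.9% of those called higher (50 of 167).

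Of 22 other chemokine genes tested, 10 rose and 1 fell (11 of 22 called, beside 3.03% of all genes), with a median log2 difference of 0.92. The 10 rises were among the 20 genes well above background on all 5 arrays (50% called, beside 2.75% of all such genes). The median of these 20 was 1.03. CCL1, which acts on CCR8, was at 1.01 and 0.95 at 8 h and at 4.68, 4.88 and 4.51 at 24 h (13.1-fold, log2 3.71 ± 0.23, q = 1.1e-06). CCL7 was at -1.41 and -1.33 and then at 2.65, 2.26 and 1.92 (12.5-fold), and its 3 probes gave log2 differences of 3.18 to 3.65. CCL2, the main attractant of monocytes through CCR2, rose 4.59-fold from 4.58 and 4.69 to 7.18, 6.80 and 6.53. Its relative CCL8 rose 5.56-fold. CCL4 and CCL20 rose 2.06-fold and 2.66-fold. CCL5 and CCL3 read 0.46 and 0.82 on the log2 scale and did not pass. The 1 fall was CCL26, which was not well above background on any 24 h array, and it was lost or turned in sign under other processing. Without UT 8 h replicate 1 the list held 7 calls, without UT 8 h replicate 2 it held 6, with normexp background correction 6 and in the fit on the 5 arrays alone 4.

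**Figure D2:**
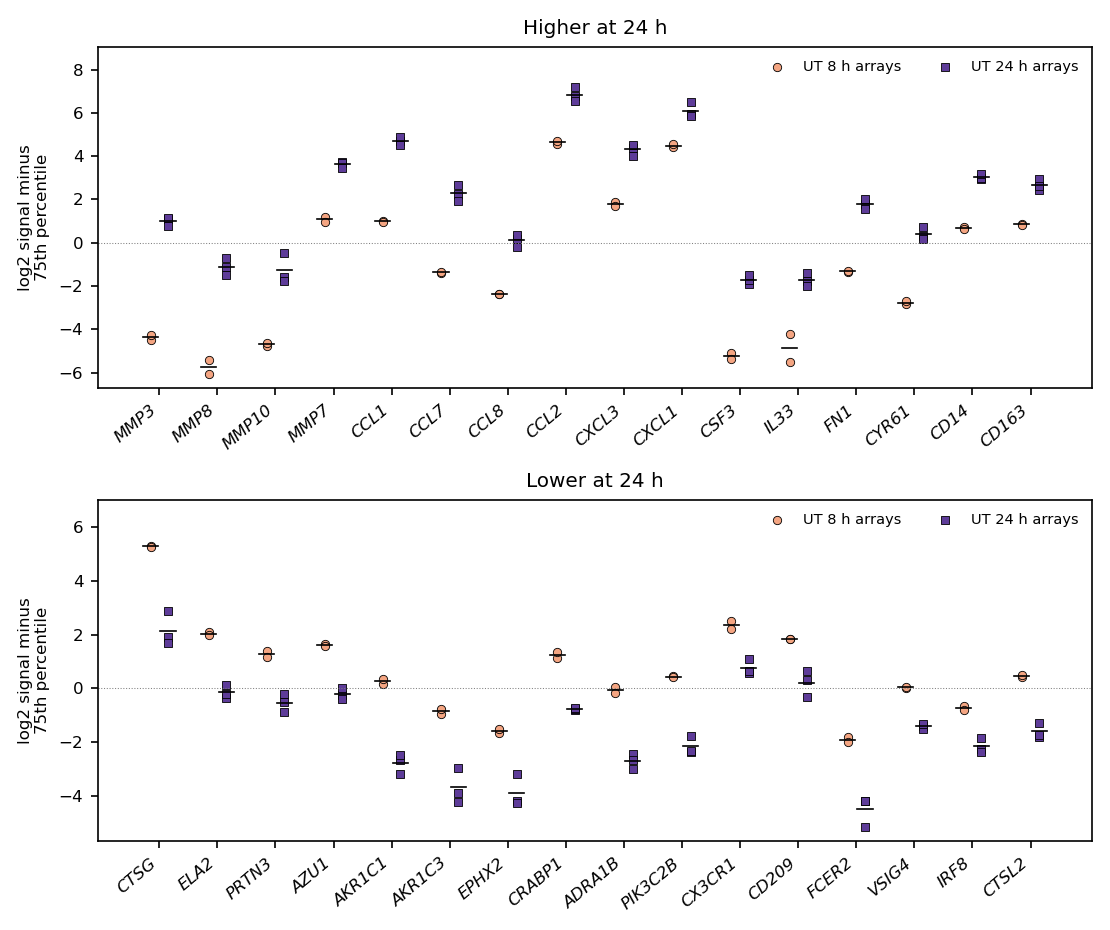
Levels (log2 signal minus the 75th percentile) of 16 genes called higher and 16 called lower at 24 h, with circles for the 2 UT 8 h arrays, squares for the 3 UT 24 h arrays and bars for the means. In every gene shown the circles and squares do not overlap, and IL33 is the gene whose 8 h arrays lie farthest apart.

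Some cytokines and growth factors rose as well, while most members of their lists did not pass. CSF3, the granulocyte colony-stimulating factor, was at -5.12 and -5.36 at 8 h, 1 of 2 arrays well above background, and at -1.93, -1.71 and -1.48 at 24 h (log2 3.53 ± 0.48, q = 0.000739, and 1.56 with normexp). CSF2 was not well above background at 8 h and rose, at least 2.81-fold on this scale, a call that was lost with normexp (log2 0.88), with signals floored at 20 (log2 0.71) and in the fit on the 5 arrays alone. LIF, an interleukin-6 family cytokine, rose 3.19-fold. Of 21 genes of the list of other interleukins and colony-stimulating factors 5 rose and 0 fell, among them CSF2 and CSF3, which were testable through the 24 h arrays, and of the 16 well above background on all 5 arrays 3 rose (18.8%, beside 2.75% of all such genes). In the interleukin-1 family 3 of 15 rose (20%, beside 1.42% of all genes called higher). Of the 13 well above background on all 5 arrays 2 rose (15.4% called, beside 2.75% of all such genes), the decoy receptor IL1R2 (4.78-fold) and IL1R1 (log2 1.36). The IL1R1 call was lost with the mean of probes, with the replicate block and in the fit on the 5 arrays alone. IL33, testable only through the 24 h arrays, had levels of -4.22 and -5.50 and then -1.41, -1.76 and -2.0 (1 of 2 arrays at 8 h well above background). IL33 rose by 3.14 on the log2 scale, by 1.5 with normexp and by 3.78 and 2.50 without UT 8 h replicates 1 and 2, and lost its call in the fit on the 5 arrays alone. Of 14 growth factors 5 rose (35.7%, beside 1.42% of all genes called higher). Among them were BDNF, a neurotrophin (log2 2.90 ± 0.53, and 1.46 with normexp), and the EGF-family ligand NRG1, at 2.91 and 2.80 and then 5.09, 4.70 and 5.09 (4.31-fold). The growth factor count was 2 without UT 8 h replicate 1, 1 without UT 8 h replicate 2, and 3 without any 1 of the 24 h arrays. In the TGF-beta family 4 of 22 rose (18.2%, beside 1.42% of all genes called higher), while the median of the family was -0.02. They were FST, which binds activins, BMP6, TGFB3 and the activin subunit INHBA.

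Large rises also lay outside the protease and cytokine lists. FN1, fibronectin, was at -1.33 and -1.32 at 8 h and at 1.78, 2.01 and 1.57 at 24 h (8.65-fold, q = 0.00018), and its 3 probes gave 2.93 to 3.82. CYR61 (now CCN1), a matrix-associated integrin ligand, rose 9.05-fold (log2 2.34 with normexp). Its relative WISP1 (CCN4) was not well above background at 8 h and rose, at least 4.19-fold on this scale. With normexp WISP1 rose by 1.1 on the log2 scale, and with signals floored at 20 its call was lost (log2 1.29). KIAA1199 (CEMIP), which breaks down hyaluronan, rose 6.64-fold. LEPREL1 (P3H2), a collagen prolyl hydroxylase, was at 3.59 and 3.75 and then at 6.35, 6.25 and 6.08 (5.87-fold). SHROOM3, an actin-binding regulator of cell shape, rose 11.3-fold (log2 2.0 with normexp), and ITGA1, a collagen-binding integrin chain, rose 4.53-fold. HSPB3, a small heat shock protein, was at -1.80 and -1.47 at 8 h and at 2.75, 2.33 and 2.44 at 24 h and had the smallest q of all genes tested (17.7-fold, q = 1.7e-07).

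Granule genes of the promonocyte were lower at 24 h throughout. Of the 7 promonocyte granule genes well above background on all 5 arrays, all were lower at 24 h and 6 fell (85.7%, beside 2.75% of all such genes), with a median log2 difference of -1.80. The eighth tested, MPO, was dim at 24 h, and with it the median was -1.67. CTSG, cathepsin G, was at 5.31 and 5.27 at 8 h and at 1.91, 1.67 and 2.88 at 24 h, an 8.78-fold fall (log2 -3.13 ± 0.59, q = 0.00702). ELA2 (ELANE), neutrophil elastase, was at 2.10 and 1.98 and then at -0.36, -0.21 and 0.13 (4.54-fold lower). PRTN3, proteinase 3, fell 3.51-fold, and AZU1, azurocidin, fell 3.49-fold. The ribonucleases RNASE2 and RNASE3 fell 2.25-fold and 2.33-fold. MPO, myeloperoxidase, was dim at -4.33 and -3.97 at 8 h, was not well above background on any 24 h array and did not pass (q = 0.0501). CFD, complement factor D, differed by -0.74. The calls rested on few arrays. Without UT 8 h replicate 1, 1 gene of the list was called, without UT 8 h replicate 2, 2 were, and in the fit on the 8 UT arrays of the slide 2 were.

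CTSG and PRTN3, the granule genes with the largest falls that the promoter table holds, had the windows below (RefSeq, GRCh38.p14, chr14:24576251-24576500, minus strand, and chr19:840749-840998, plus strand). They were chosen by the size of their falls, and they carry little in common in the motifs searched. Capitals mark the CCAAT box, read here on the other strand as ATTGG.
CTSG: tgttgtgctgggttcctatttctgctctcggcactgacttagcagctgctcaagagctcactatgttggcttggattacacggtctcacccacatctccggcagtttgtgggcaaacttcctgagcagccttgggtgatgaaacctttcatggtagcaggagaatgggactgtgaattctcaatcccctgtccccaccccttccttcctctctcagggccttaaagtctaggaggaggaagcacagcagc
PRTN3: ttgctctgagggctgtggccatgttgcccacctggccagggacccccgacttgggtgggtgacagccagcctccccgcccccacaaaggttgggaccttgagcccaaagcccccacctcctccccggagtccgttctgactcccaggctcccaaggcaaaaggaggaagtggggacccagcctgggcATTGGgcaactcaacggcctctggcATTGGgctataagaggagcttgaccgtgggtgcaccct
PRTN3 held 2 CCAAT boxes, at -63 and -38, and CTSG held 0 of the 7 motifs. Of the 6 granule genes with a promoter entry 2 held a CCAAT box (33.3%), beside 32.9% of all promoters.

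Large falls also lay outside the granule list. AKR1C1, an aldo-keto reductase acting on steroids, was at 0.17 and 0.36 at 8 h and at -2.68, -3.20 and -2.47 at 24 h (8.30-fold lower, q = 2.73e-05, and log2 -2.16 with normexp). Its relative AKR1C3 fell by 2.84 on the log2 scale (1.42 with normexp) and lost its call in the fit on the 5 arrays alone, and probes of these near-identical genes may share signal. EPHX2, the soluble epoxide hydrolase, fell 4.92-fold, a call lost with normexp (log2 -0.93) and in the fit on the 5 arrays alone. CRABP1, which binds retinoic acid, fell 4.02-fold, and DHRS9, a retinoid-active dehydrogenase, fell 4.03-fold. ADRA1B, an alpha-1 adrenergic receptor, was at 0.03 and -0.16 and then at -2.45, -2.68 and -3.02 (6.29-fold lower, and log2 -1.64 with normexp). PIK3C2B, a class II phosphoinositide 3-kinase, was at 0.46 and 0.41 and then at -2.37, -2.33 and -1.79 (6.04-fold lower, q = 9.69e-06, and log2 -1.91 with normexp). CTSL2 (CTSV), cathepsin V, fell 4.18-fold. TMCC2 was not well above background on any 24 h array and was, on this scale, at least 5.19-fold lower. Its call was lost with normexp (log2 -0.74), with the mean of its probes (log2 -0.55), in the fit on the 5 arrays alone, with the replicate block and without either 8 h array. MAGOH, of the exon junction complex, fell by 2.02 on the log2 scale (q = 0.042), a call that was lost when any 1 of the 5 arrays was left out.

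Surface receptors moved in both directions. CD14, the co-receptor for lipopolysaccharide, was at 0.72 and 0.64 at 8 h and at 2.92, 2.98 and 3.19 at 24 h (5.08-fold higher, q = 0.00018). CD163, the haemoglobin scavenger receptor, rose 3.51-fold. VSIG4, a complement receptor of tissue macrophages, was at 0.02 and 0.05 and then at -1.39, -1.5 and -1.32 (2.71-fold lower, q = 0.00023). These were the 3 called genes of 19 macrophage identity markers tested (15.8%, beside 3.03% of all genes). Of 17 Fc receptor and complement genes 6 were called (35.3%, beside 3.03% of all genes). Of the 15 well above background on all 5 arrays 33.3% were called, 4 higher and 1 lower, beside 2.75% of all such genes. The 4 rises included CD59 (4.14-fold), which blocks the membrane attack complex, and FCGR3A (CD16, 2.43-fold). The FCGR3A call was lost with normexp and in the fit on the 5 arrays alone. The 2 falls included FCER2 (CD23, 6.07-fold lower), which was well above background on 2 of 3 arrays at 24 h. The FCER2 call was lost with normexp (log2 -0.91), in the fit on the 5 arrays alone, without either 8 h array and without UT 24 h replicate 3. Of 19 scavenger and clearance receptors 3 rose and 2 fell (26.3% called, beside 3.03% of all genes), the latter being CD209 (3.09-fold lower) and AXL. The AXL call was lost with normexp, in the fits on the 5 arrays and on the 8 UT arrays, and without UT 8 h replicate 1, UT 8 h replicate 2 or UT 24 h replicate 1. Among chemokine receptors CCR7 rose 3.28-fold and CXCR4 2.66-fold, and CX3CR1, the fractalkine receptor, was at 2.21 and 2.49 and then at 1.11, 0.56 and 0.63 (3.01-fold lower). IRF8, a transcription factor of the monocyte lineage, was the 1 of 22 myeloid transcription factors called (4.55%, close to the 3.03% of all genes) and fell by 1.41. Its call held in 1 of the 5 fits without 1 array, that without UT 24 h replicate 1, and was lost with normexp, in the fit on the 5 arrays alone and with the replicate block. ABCA1, the cholesterol exporter, and its activator NR1H3 (LXR-alpha) rose 3.70-fold and 2.51-fold.

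**Figure D3:**
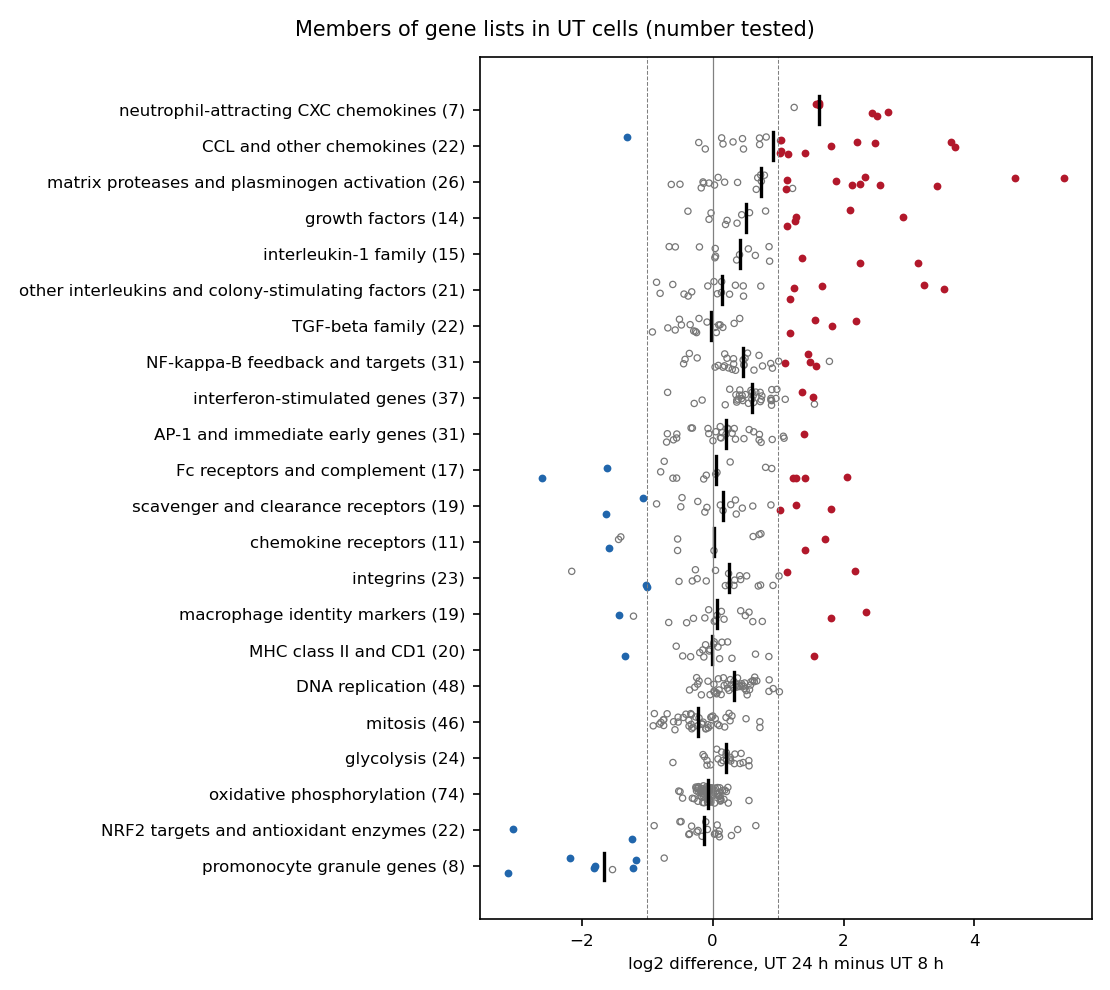
Log2 difference, UT 24 h minus UT 8 h, of the tested members of 22 gene lists, with the number tested in brackets. Filled red and blue points are called higher and lower, open points did not pass, short black bars are list medians and dashed lines mark a difference of 1. The CXC chemokines lie wholly to the right and the granule genes wholly to the left, while no member of the DNA replication, mitosis, glycolysis and oxidative phosphorylation lists was called.

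In the signalling target lists most members did not pass. Of 31 NF-kappa-B feedback and target genes 4 rose (12.9%, beside 1.42% of all genes called higher), with a median log2 difference of 0.47, namely TNFRSF9, TNFAIP6, BIRC3 and SOD2, and 2 and 1 were called without UT 8 h replicates 1 and 2. In the fit on the 5 arrays alone 0 genes of this list and 0 of the interferon list were called. SOD2 was at 6.11 and 6.17 at 8 h and at 7.27, 7.21 and 7.23 at 24 h. Its call was lost with quantile normalization, with the mean of its probes and in the fit on the 5 arrays alone. Of 37 interferon-stimulated genes 34 were higher at 24 h, but only IFI44L (2.90-fold) and IFIT3 passed, and 0 were called without UT 8 h replicate 2 and 4 without UT 8 h replicate 1. The median of the interferon list was 0.60, and 5.41% of it was called, beside 1.42% of all genes called higher. Of all 20924 genes tested 9828 were higher at 24 h. Of 31 AP-1 and immediate early genes 1 rose, NR4A1 (3.23%, close to the 3.03% of all genes), whose other probe read -0.31 and whose call was lost under 6 of 14 alternatives and without UT 8 h replicate 2 or UT 24 h replicate 2.

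No gene of the DNA replication, mitosis and core metabolism lists passed, beside 3.03% of all genes. In the DNA replication list 0 of 48 genes passed, although FEN1 and MCM4 had a q below the threshold with log2 differences of 0.86 and 0.92. Of the 48, 40 were higher at 24 h, beside 9828 of all 20924 genes tested, with a median of 0.32. In the list 1 gene was called in the fit on the 8 h and 24 h arrays alone. The same count was given by the mean of probes, array weights and the replicate block. In the mitosis list 0 of 46 passed and 34 were lower, beside 11096 of all 20924 genes tested, with a median of -0.22. PTTG1, securin, was at 4.20 and 4.41 and then at 3.50, 3.46 and 3.52, a log2 difference of -0.81 (q = 0.0183). Likewise 0 of 24 glycolysis genes, 0 of 74 of oxidative phosphorylation and 0 of 29 of ribosome biogenesis passed, with medians of 0.21, -0.07 and 0.02.

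The later UT arrays, 2 at 48 h and 3 at 96 h, place the interval in the time course. They were set against the same 8 h arrays, and 2 of the 96 h arrays lay on another slide, so the values are given side by side with no test. Relative to 8 h, the granule list had a median of -1.67 at 24 h, which went to -2.77 at 48 h and to -3.08 at 96 h. That of the CXC chemokines was 1.63, 2.21 and 0.67, and that of the matrix proteases 0.74, 0.71 and -0.96. DNA replication read 0.32, 1.39 and 1.91 and mitosis -0.22, 1.47 and 3.04. Single genes took different courses. CD14 had a mean level of 3.03 at 24 h, 4.82 at 48 h and 4.91 at 96 h. MMP3 had 1.01, 2.21 and -2.87. VSIG4, lower at 24 h, had -1.40, 2.37 and 4.45, beside 0.03 at 8 h.

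**Figure D4:**
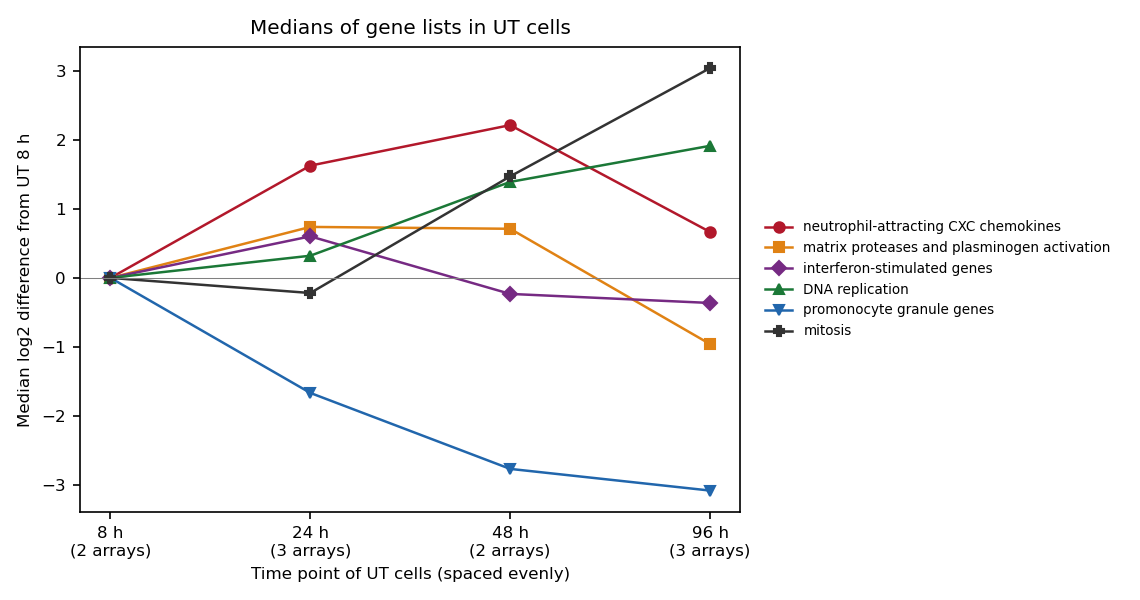
Median log2 difference from UT 8 h of 6 gene lists in UT cells at 24, 48 and 96 h. All points share the 2 arrays at 8 h, the time points are spaced evenly and no error is drawn. Granule genes lie lower at each later time point, whereas the medians of DNA replication and mitosis rise above 1 at 48 h.

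Vit C-treated cells gave the same comparison on other arrays, all 5 of them on 1 other slide. Between 24 h and 8 h 1271 of 20843 genes passed (6.10%), 722 higher (3.46%) and 549 lower (2.63%). Of the 634 genes called in UT cells 438 were called in the same direction with vit C, which is 69.1% of the UT calls and 34.5% of the vit C calls, and 0 were called in the opposite direction. The median log2 difference of the genes called higher in UT was 1.42 in UT and 1.54 with vit C, and that of the genes called lower was -1.33 and -1.31. The genes were chosen by their UT difference, so the vit C differences did not enter that choice. The spread, however, was estimated over the arrays of all 8 groups, vit C among them. A gene with a small spread was thus favoured in both comparisons, and the shared calls are not an independent repeat. MMP3 differed by 6.92 with vit C and 5.37 without, CCL1 by 4.91 and 3.71, and CTSG by -2.99 and -3.13.

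A test of the difference between these time effects passed for 7 of 21648 genes (0.0323%), all higher with vit C, and 1413 had an unadjusted p under 0.05. Of the 634 UT calls 1 was among them, SLC1A2, a glutamate transporter, which rose by 2.64 in UT and by 4.77 with vit C. It was well above background on 1 of 2 UT 8 h arrays, and its UT difference was 1.12 with normexp and 1.71 with signals floored at 20. SLA, a Src-like adaptor, differed by 0.89 in UT and rose by 2.99 with vit C. PDGFRB, the receptor of platelet-derived growth factor B, differed by -0.79 in UT and rose by 1.2 with vit C. In the DNA replication list 18 of 49 genes rose with vit C, beside 3.46% of all genes, and 0 of 48 in UT, beside 1.42%, but the difference between the time effects passed for 0 of them (smallest q = 0.151). In the fit on the 8 h and 24 h arrays alone 0 genes passed. Leaving out vit C 24 h replicate 1 gave 32 genes, 13 of them higher and 19 lower with vit C.

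**Figure D5:**
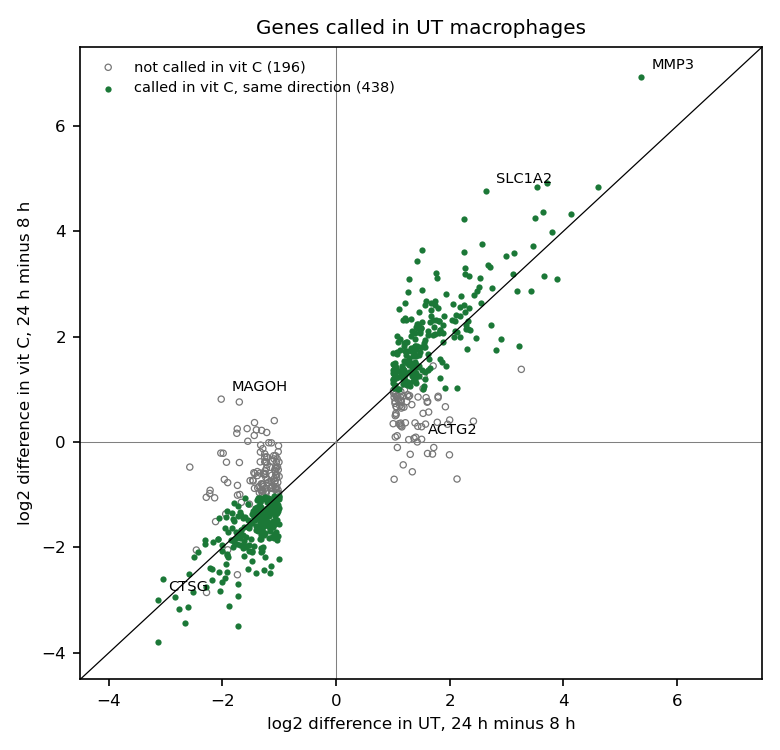
Log2 difference between 24 h and 8 h of the 634 genes called in UT cells, in UT cells (x axis) and in vit C-treated cells (y axis), with the line of equality. The 438 filled points were also called with vit C in the same direction and the 196 open points were not, and MAGOH is an open point above 0 on the y axis.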

How the data were processed

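Total RNA of PMA-differentiated THP-1 cells was labelled with Cy3 and hybridized to Agilent one-colour 8x60k arrays of a custom human design. For the intensity values, the authors extracted processed signals with Agilent Feature Extraction, version 10.5.1.1 per the file headers, with detrending and surrogates for low signals on and local background subtraction off. For the log2 values of the series matrix, the authors shifted each array to its 75th percentile in GeneSpring before these were deposited, which gave an alternative to the signals.

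Control spots were left out, which left 51538 of 52857 per array. The log2 signals of spots with the same probe were averaged, for 50238 probes under 31033 gene names of the array's design, of which 15590 are current RefSeq symbols. Each array was then centred on its 75th percentile, and no spot was saturated. Each gene took the value of its probe with the highest mean signal over the 19 arrays. Of 202 called genes with several probes, 14 had a probe of opposite sign. The means of all 8 groups of the 19 arrays were estimated together in limma 3.58.1 (lmFit and eBayes, two-sided) in R 4.3.3, because 2 against 3 arrays estimate the spread poorly, and the script was tested on simulated data. The contrasts were UT 24 h minus 8 h, the same with vit C, and their difference. Where a gene was not well above background on any array of a time point, a fold is a lower bound, set from the lowest signal among probes well above background on each array. The precision is limited by the number of arrays.

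The 45 gene lists come from general knowledge. Named were the 15 largest rises and falls, the 5 largest bounds each way, up to 4 called members each way per list, up to 5 genes each way for the difference, and 2 bright members of lists without a call, of which the text gives a choice. The members and lists were chosen with earlier results of these data known. Motifs were searched on both strands of the 250 bases before the start site. Besides those marked in capitals, they were the E2F, CHR (TTTGAA), sterol response and interferon response (ISRE) motifs. Of the genes tested 11008 had an entry. Alternatives were quantile normalization, the percentile over detected probes, normexp with an offset of 50, a floor of 20, other filters and probe rules, fits on fewer arrays, an intensity trend, array weights, the slide or the replicate number as a block, the methods' t-test and each array left out. Plots used matplotlib 3.10.9 in Python 3.11.15.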

Additional observations from a re-analysis of the deposited data

Results flagged for a closer look

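Of the 7 genes that passed a test of the difference between the time effects of vit C-treated and UT cells in limma, the 5 with the largest difference are given here. The difference was 2.71 ± 0.33 (SE, log2, q = 0.00695) for the transcript HsapiAK092218, which differed by 0.40 in UT and rose by 3.12 with vit C. Its 4 probes differed by -1.23 to 0.40 in UT, and their mean by -0.70. For SLC1A2 it was 2.13 ± 0.31 (q = 0.0343), and for DUSP13, a dual-specificity phosphatase, 2.10 ± 0.24 (q = 0.00555), with 0.58 in UT and 2.68 with vit C. For SLA it was 2.10 ± 0.24 (q = 0.00555) and for PDGFRB 1.99 ± 0.29 (q = 0.0343). Each difference rests on 2 or 3 arrays per group, the UT arrays on 1 slide and the vit C arrays on another.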

How the results depend on the processing

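For UT 24 h against 8 h the 634 calls became 313 with normexp background correction (284 of them shared), 108 in a fit on the 5 arrays alone (106 shared), 323 with a replicate block (296 shared), and 0 with the methods' t-test after Benjamini-Hochberg, which gave 839 at an unadjusted p. With each array left out in turn the count ran from 274 to 587. With vit C the 1271 calls became 648 with normexp and 44 with the methods' t-test after Benjamini-Hochberg, and ran from 957 to 1319 with arrays left out. For the difference between the time effects the 7 calls became 4 with the percentile over detected probes, 24 with normexp (75.0% higher with vit C, beside 100% in the main setting), 58 with a floor of 20 (77.6% higher), 4 with probes well above background in all groups, 3 with the mean of probes, 0 in a fit on the 8 h and 24 h arrays, 16 with an intensity trend, 4 with the slide as a fixed term and 0 with the replicate block, and ran from 3 to 32 with arrays left out, the 32 being without vit C 24 h replicate 1 (40.6% higher). The other alternatives stayed within 1.5 times each count. Of 111 named calls 36 held in the 14 alternatives refitted for single genes and in the 5 fits without 1 UT array, 78 held with normexp and 45 in the fit on the 5 arrays alone, and 1 turned, CCL26, at 0.18 with normexp. Of the 45 list medians 27 kept their sign throughout, among them the chemokine, matrix protease, granule, DNA replication and mitosis lists. Whether equal replicate numbers pair the arrays could not be decided. The deviations of UT 8 h and 24 h arrays correlated at -0.20 for number 1 and -0.11 for number 2. With 2 arrays at 8 h their deviations are mirror images, so these values are not separate. The cause of these changes was not tested. The precision is limited by the 2 arrays at 8 h.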
